A study of Mus musculus with 16 samples.

Results

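The genes described here are the 6 of MHC class II presentation that were taken by symbol: the alpha chain gene H2-Aa, the beta chain genes H2-Ab1 and H2-Eb1, the invariant chain gene Cd74, and the peptide exchange chain genes H2-DMa and H2-DMb1. All 6 were among the 14933 genes of the tumour table, and 2 of them, H2-DMa and H2-DMb1, were among the 13143 genes of the TDM culture table and the 13284 of the TDMa culture table. The other 4 genes in culture were not analysed here. The RNA came from 16 libraries of B16F10, a mouse melanoma line, in its derived lines B16F10-TDM and B16F10-TDMa, whose names the labels do not explain. Cells carried sgScramble, the control sgRNA, or sgNlrc5, an sgRNA to Nlrc5. There were 2 libraries per guide for TDM culture, 2 per guide for TDMa culture and 4 per guide for TDMa tumours. The series title speaks of demethylation and activation of Nlrc5, and the controls were of the same line as the sgNlrc5 samples. The labels give no host strain or age for the tumours. Nor do they tie a replicate to its own dish or mouse, and the p-values therefore describe the spread among these libraries, which may be technical. The libraries held 12183889 to 16390886 reads over the listed genes. Nlrc5 itself was higher with its guide in each table, at means of 17.8 and 68.0 normalised counts in TDM culture, 248 and 3144 in TDMa culture and 577 and 3916 in tumours.

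MHC class II molecules show peptides from the endocytic pathway to CD4+ T cells. An alpha and a beta chain pair in the endoplasmic reticulum around the invariant chain CD74, which blocks the groove and routes the complex to endosomes, where cathepsins trim CD74 and the H2-DM dimer removes its last fragment so that other peptides bind. The genes share a promoter module of X and Y boxes, bound by RFX, CREB and NF-Y factors, on which the transactivator CIITA acts. Dendritic cells, B cells and activated macrophages express class II constitutively or on activation, and interferon gamma can induce it in many other cells through CIITA. NLRC5 is a relative of CIITA known for acting at class I promoters. The melanoma line derives from C57BL/6 mice, a strain that makes no H2-E alpha chain, so its H2-Eb1 chain has no usual partner.

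Because the 6 genes moved together in tumours, the promoters in the RefSeq table at hand (GRCm38.p6, an earlier build than the one the submitters name) were searched for the shared module. It held windows for 4 of the 6 genes: H2-Aa, H2-Eb1, H2-DMa and H2-DMb1. The X motif was written CTNGNAAC and the Y motif TGATTGG, on both strands of the 250 bases before the start. These letters were chosen after the sequences were seen, and the Y motif contains a CCAAT box on its other strand. An X followed by a Y on the same strand, with 10 to 40 bases between them, was found in H2-Aa (chr17:34287824-34288073, minus strand), H2-Eb1 (chr17:34305617-34305866, plus strand) and H2-DMb1 (chr17:34152941-34153190, plus strand). They are shown 5′ to 3′ because they show the element these genes have in common, with the X and Y matches in capitals.
H2-Aa: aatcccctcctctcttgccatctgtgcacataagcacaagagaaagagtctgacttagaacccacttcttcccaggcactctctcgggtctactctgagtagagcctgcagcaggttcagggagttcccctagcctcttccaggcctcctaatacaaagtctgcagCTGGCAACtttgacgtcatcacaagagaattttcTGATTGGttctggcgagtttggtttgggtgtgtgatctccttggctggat
H2-Eb1: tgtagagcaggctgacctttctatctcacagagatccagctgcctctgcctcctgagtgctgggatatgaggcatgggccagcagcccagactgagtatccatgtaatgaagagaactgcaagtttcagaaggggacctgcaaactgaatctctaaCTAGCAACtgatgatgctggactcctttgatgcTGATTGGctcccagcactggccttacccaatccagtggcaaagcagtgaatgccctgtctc
H2-DMb1: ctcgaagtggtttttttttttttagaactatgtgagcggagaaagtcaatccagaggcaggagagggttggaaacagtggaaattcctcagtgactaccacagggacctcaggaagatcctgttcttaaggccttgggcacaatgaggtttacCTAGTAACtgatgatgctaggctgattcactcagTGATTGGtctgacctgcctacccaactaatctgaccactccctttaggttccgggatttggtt

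The X match began 84 bases before the start in H2-Aa, 94 in H2-Eb1 and 97 in H2-DMb1, and 26, 25 and 26 bases lay between X and Y. Of 32851 promoter windows of all genes, 10.9% held the X motif, 7.23% the Y motif and 0.0731% (24 windows) the pair at this spacing. The 24 included H2-Ob, a chain of the H2-DM inhibitor H2-DO, beside the 3 genes shown. Both windows of H2-DMa, which began at chr17:34122582 and chr17:34125268, held neither motif in these letters. Sequence before any other start of H2-DMa was not searched, so this does not show that the gene lacks the module. H2-DMb2, a copy of H2-DMb1, held the Y motif only, with ctattaac where H2-DMb1 has CTAGTAAC. A match of letters is a description and not a measured binding site.

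In TDMa tumours all 6 genes were higher with sgNlrc5, and the sgNlrc5 tumours did not overlap the sgScramble tumours for any of them. Of 13385 genes tested in tumours, 19.7% were called higher, 39.4% were called in either direction, and 18.1% had every sgNlrc5 library above every sgScramble library. The median log2 fold change of the 6 genes was 2.75, against -0.010 over all genes tested. Log2 fold changes are of log2(normalised count + 1), sgNlrc5 minus sgScramble, from limma with Benjamini-Hochberg adjustment over all genes, called at an adjusted p under 0.05, with standard errors after ±. Errors after mean normalised counts are standard deviations. The samples are bulk tissue, in which more cells of a type and more RNA per cell cannot be told apart.

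**Figure D1:**
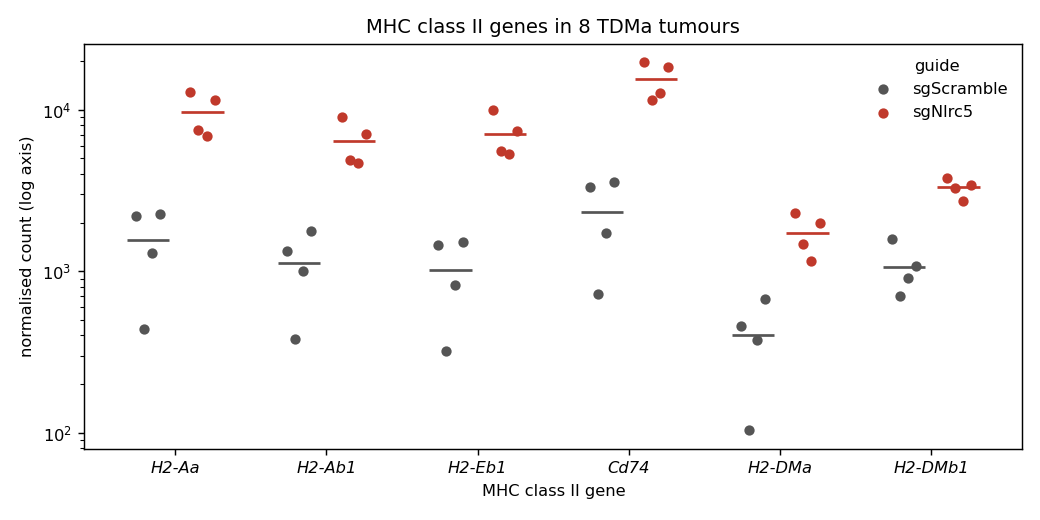
Normalised counts (log axis) of the 6 class II genes in 8 TDMa tumours, 1 point per tumour, with horizontal bars at the mean of each guide (4 tumours each). For each gene the red sgNlrc5 points lie above all grey sgScramble points, and the lowest grey point of each gene is sgScramble replicate 2.

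The alpha chain gene H2-Aa (ENSMUSG00000036594) had 2205, 439, 1301 and 2270 normalised counts in sgScramble tumours 1 to 4 and 12840, 7542, 6834 and 11439 in sgNlrc5 tumours 1 to 4. Replicate 2 was the low sgScramble tumour, and no sgScramble value reached the lowest sgNlrc5 value. H2-Aa rose from a mean of 1554 ± 865 to one of 9664 ± 2929 (n = 4 and 4), which is 2.84 ± 0.43 in log2, or 7.17-fold (limma adjusted p = 4.5e-04).

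Its partner H2-Ab1 (ENSMUSG00000073421), the beta chain of H2-A, had 1330, 381, 999 and 1779 normalised counts with sgScramble and 9036, 4895, 4685 and 7064 with sgNlrc5. Its mean of 1122 ± 588 rose to 6420 ± 2049, a change of 2.67 ± 0.38 in log2 (limma adjusted p = 3.4e-04). For both chains of the H2-A dimer the highest tumour was sgNlrc5 replicate 1.

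The other beta chain gene, H2-Eb1 (ENSMUSG00000060586), had 1442, 320, 816 and 1515 normalised counts with sgScramble and 10002, 5572, 5326 and 7438 with sgNlrc5. It rose by log2 2.98 ± 0.40, or 7.88-fold (limma adjusted p = 2.4e-04), next to Cd74 in size. An antisense gene overlaps it in the GENCODE M21 annotation, and since no source at hand gives the strand setting of the counting, their reads cannot be told apart.

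The invariant chain gene Cd74 (ENSMUSG00000024610) had the most reads of the 6. It stood at 3306, 727, 1724 and 3573 normalised counts with sgScramble and at 19663, 11427, 12750 and 18529 with sgNlrc5. Cd74 means were 2332 ± 1346 and 15592 ± 4108, a rise of 2.95 ± 0.41 in log2 (limma adjusted p = 2.6e-04). The 6 genes together took 0.0188% to 0.0753% of the reads of each sgScramble tumour and 0.221% to 0.396% of each sgNlrc5 tumour.

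The peptide exchange chains rose too, with the 2 smallest fold changes of the 6. H2-DMa (ENSMUSG00000037649), the alpha chain of H2-DM, had 455, 103, 373 and 676 normalised counts with sgScramble and 2282, 1465, 1159 and 1993 with sgNlrc5. It rose by log2 2.33 ± 0.45 (limma adjusted p = 0.0019). In the annotation it overlaps 4 other genes, among them Brd2 on the opposite strand, and its reads may include some of theirs.

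H2-DMb1 (ENSMUSG00000079547), the beta chain of H2-DM, had 1577, 703, 910 and 1079 normalised counts with sgScramble and 3783, 3273, 2737 and 3413 with sgNlrc5. The groups stayed apart although its sgScramble values started higher relative to its sgNlrc5 values than those of the other members. Means of 1067 ± 373 and 3302 ± 434 gave a rise of 1.68 ± 0.20 in log2, or 3.21-fold (limma adjusted p = 1.0e-04). Its transcript is 95.5% identical to that of H2-DMb2 over 1058 aligned bases, so reads could be split between the 2 genes.

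Among the sgScramble tumours values ran further apart. The highest sgScramble value was 5.17 times the lowest for H2-Aa, 4.92 times for Cd74, 6.55 times for H2-DMa and 2.24 times for H2-DMb1. Among sgNlrc5 tumours the same ratios were 1.88, 1.72, 1.97 and 1.38. The difference in spread was not tested. Replicate 2 gave the lowest sgScramble value for each of the 6. Its summed macrophage markers, 4503 normalised counts, lay within the sgScramble range of 4417 to 7025, and its summed leukocyte markers, 507, were the lowest of a range that reached 1168. Without sgScramble replicate 2 each of the 6 genes was still called, with log2 fold changes from 1.503 for H2-DMb1 to 2.50 for H2-Eb1 (limma adjusted p from 7.0e-05 to 3.8e-04).

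Levels of the members were compared per kilobase of the longest coding transcript in GENCODE M21, which belongs to an earlier build and gives lengths from 1128 bases for H2-Aa to 2005 for H2-DMa. On that scale Cd74 had the highest level of the 6 in every sgNlrc5 tumour and in every sgScramble tumour, with 26.3% to 31.6% of the summed level in sgScramble tumours and 32.1% to 36.6% in sgNlrc5 tumours. H2-Aa came second with sgNlrc5 (24.5% to 27.4%), followed by H2-Ab1 (15.7% to 17.5%), H2-Eb1 (12.1% to 14.1%), H2-DMb1 (6.32% to 9.24%) and H2-DMa (2.34% to 2.90%). In sgNlrc5 tumours these ranges of shares did not overlap between neighbours in the order. With sgScramble the order was less settled, since the share of H2-DMb1 ran from 9.57% to 25.5% and was above that of H2-Aa in replicate 2.

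Ratios within the H2-A complex overlapped between the guides, while those of H2-Aa to the H2-DM chains did not. Per kilobase, H2-Aa stood to H2-Ab1 as 1.24 to 1.78 in sgScramble tumours and as 1.53 to 1.74 in sgNlrc5 tumours, and Cd74 to H2-Aa as 1.06 to 1.32 and 1.21 to 1.49, so both ratios overlapped between guides. H2-Aa to H2-DMa ran from 5.97 to 8.61 with sgScramble and from 9.15 to 10.5 with sgNlrc5. H2-Aa to H2-DMb1 ran from 0.778 to 2.62 and from 2.87 to 4.22. Neither of the last 2 ratios overlapped between the guides.

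**Figure D2:**
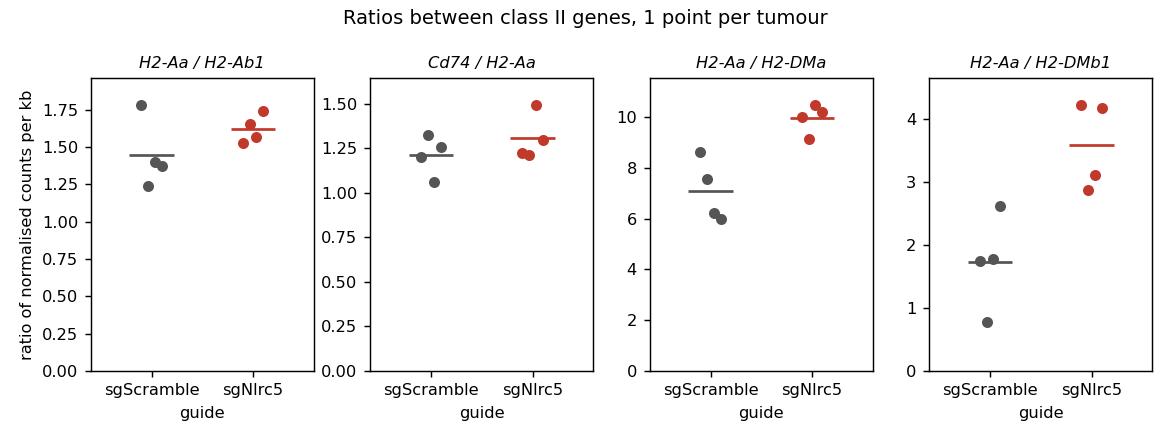
Ratios of normalised counts per kilobase between pairs of class II genes, 1 point per TDMa tumour, with bars at the mean of 4 tumours per guide. H2-Aa over H2-Ab1 and Cd74 over H2-Aa overlap between guides, while H2-Aa over H2-DMa and over H2-DMb1 lie higher in every sgNlrc5 tumour.

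All 15 pairs among the 6 genes were tested for a change of their log2 ratio with the guide, with a two-sided exact permutation test over 4 and 4 tumours, whose smallest possible p is 0.0286. There were 6 pairs at that p: H2-Aa, H2-Eb1 and Cd74, each against H2-DMa and against H2-DMb1. The log2 fold change of H2-Eb1 was above that of H2-DMb1 by 1.295, that of Cd74 by 1.27 and that of H2-Aa by 1.16. Against H2-DMa the differences were 0.64 for H2-Eb1, 0.62 for Cd74 and 0.51 for H2-Aa. After adjustment over the 15 pairs none passed 0.05 (exact permutation adjusted p = 0.0714 for these 6 pairs). Among the 4 non-exchange genes the differences were between -0.31 and 0.18, and the smallest exact p among them was 0.0571.

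In culture only the 2 exchange chain genes could be followed, and neither was called higher. In TDM culture, where 0.517% of 11989 genes were called, neither of the 2 passed limma, at an unadjusted p under 0.05 neither did, and with voom neither did. H2-DMa had 45.9 and 50.9 normalised counts with sgScramble and 63.0 and 52.1 with sgNlrc5, so that both sgNlrc5 values were the higher by a log2 of 0.24 ± 0.25 (limma adjusted p = 0.83). H2-DMb1 had 228 and 278 with sgScramble and 274 and 284 with sgNlrc5, at 0.15 ± 0.13 (limma adjusted p = 0.77).

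In TDMa culture, where 34.2% of 12138 genes were called, H2-DMb1 fell. It had 259 and 311 normalised counts with sgScramble and 217 and 194 with sgNlrc5, with no overlap, at -0.47 ± 0.13 in log2 (limma adjusted p = 0.0071). The call was lost without sgScramble replicate 2 (-0.34, limma adjusted p = 0.17), without sgNlrc5 replicate 2 (-0.39, 0.067) and without the intensity trend (0.097). H2-DMa was near the detection limit there, with 18 and 22 reads with sgScramble and 6 and 28 reads with sgNlrc5, and stood at -0.44 ± 0.51 (limma adjusted p = 0.55). Its direction turned without sgNlrc5 replicate 1 (0.49). H2-D1, which encodes a class I heavy chain, had means of 131 and 3841 normalised counts in the same cells and rose (limma adjusted p = 2.7e-17).

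**Figure D3:**
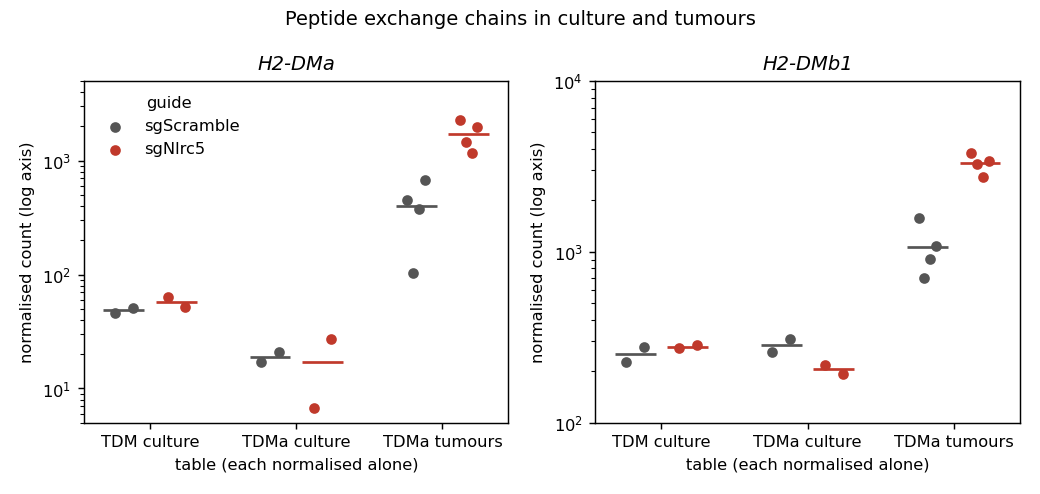
Normalised counts (log axis) of H2-DMa and H2-DMb1 in TDM culture, TDMa culture and TDMa tumours, 1 point per library, with bars at group means; each table was normalised alone. H2-DMb1 lies between 194 and 311 in all 8 culture libraries and between 703 and 3783 in the 8 tumours.

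The guide effect on both genes differed between tumours and culture. As a limma interaction over 11782 genes, of which 41.1% were called, the effect in TDMa tumours minus that in TDMa culture was 3.18 ± 0.72 for H2-DMa (adjusted p = 0.0019) and 2.32 ± 0.22 for H2-DMb1 (adjusted p = 4.7e-07). The fit weighted the tumours between 0.295 and 1.67. Among sgScramble tumours, replicate 2, the lowest for the class II genes, had 1.39, and replicates 1 and 4 had 0.465 and 0.571. With equal weights the differences were 2.77 and 2.15 (adjusted p = 0.023 and 2.2e-04). For H2-D1 the same difference was -0.22 ± 0.22 (adjusted p = 0.44). In levels, which compare only roughly across tables, H2-DMa was lowest in TDMa culture (means of 19.1 and 16.9 normalised counts for the 2 guides, whose values overlapped), higher in TDM culture (48.4 and 57.5) and higher still in tumours (402 and 1725). H2-DMb1 had means of 253 and 279 in TDM culture, 285 and 205 in TDMa culture and 1067 and 3302 in tumours, and its values in the TDM groups overlapped.

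The remaining class II chains were sparse in tumours. Of 5 such genes 3 were in the table, 2 of these passed the filter on low values and both rose, with a median of 2.61. Of all genes tested, 19.7% were called higher. H2-DMb2, the second H2-DM beta chain gene, had 12.6 ± 9.65 normalised counts with sgScramble and 51.7 ± 30.9 with sgNlrc5, a log2 rise of 2.17 ± 0.60 (limma adjusted p = 0.014). H2-Eb2 went from 13.5 ± 19.0 to 85.1 ± 75.3, by 3.06 ± 0.94 (limma adjusted p = 0.022), with overlapping groups. H2-Ob had 1 to 11 reads in the sgScramble tumours and 11 to 16 in the sgNlrc5 tumours and was not tested. H2-Oa and H2-Ea were not analysed here.

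In the class II transcription list, Ciita and Nlrc5 rose and none of the 7 genes of RFX, NF-Y and CREB factors did. NLRC5 is known for acting at class I promoters. Since the series title names activation of Nlrc5, its rise is not a separate result. Ciita (ENSMUSG00000022504), the class II transactivator, had 100, 18.1, 56.7 and 146 normalised counts with sgScramble and 360, 211, 174 and 342 with sgNlrc5. It rose by log2 2.03 ± 0.50 (limma adjusted p = 0.0078), with its lowest value in sgScramble replicate 2. Nlrc5, the gene named by the guide, rose by 2.88 ± 0.28 (limma adjusted p = 3.1e-05), from 577 ± 243 to 3916 ± 445 normalised counts. Cd74 stood to Ciita at 24.4 to 40.1 in sgScramble tumours and at 54.1 to 73.1 in sgNlrc5 tumours. Of the 9 genes in this list 2 rose and 1 fell. Over all genes tested, 19.7% were called higher and 39.4% in either direction. The 1 that fell was Rfxap, a subunit of the RFX complex, at -0.31 ± 0.10 (limma adjusted p = 0.028). Rfx5, Rfxank, Nfya, Nfyb, Nfyc and Creb1, named after their values were seen, lay between -0.21 and 0.079. The median of the list was -0.14. In TDMa culture, where Ciita was not analysed here, 3 of 8 were higher (Nlrc5, Creb1 and Nfyc) and 1 was lower (Nfya). Of all genes tested there, 34.2% were called in either direction.

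Genes that supply and route class II complexes rose in 7 of 9, against 19.7% of all genes tested, with 0 lower and a median of 0.84. Ctss, the cathepsin that makes the last cut in CD74, went up from a mean of 1191 normalised counts to one of 5187, or 2.14 ± 0.22 in log2 (limma adjusted p = 4.2e-05). Ctsh, another cathepsin, rose by 1.88, and Lgmn, an asparagine endopeptidase, by 0.84. Ctsl rose by 0.65. Marchf1, a ubiquitin ligase that removes class II from the surface, rose by 1.37, and Cd83, which opposes it, by 1.77. Sppl2a, the protease that clears the CD74 stub, rose by 0.42, while Ifi30, a thiol reductase of endosomes, stood at 0.093 and Marchf8 at -0.022 (the last 3 named after their values were seen). In TDMa culture, where 34.2% of all genes tested were called, 4 of the 5 genes tested were higher and 1, Marchf8, was lower. The 4 tested ligands and partners of CD74 as a receptor included 2 that rose, the chemokine receptor gene Cxcr4 at 1.44 and Cd44 at 0.26, and the ligand gene Mif stood at 0.053.

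**Figure D4:**
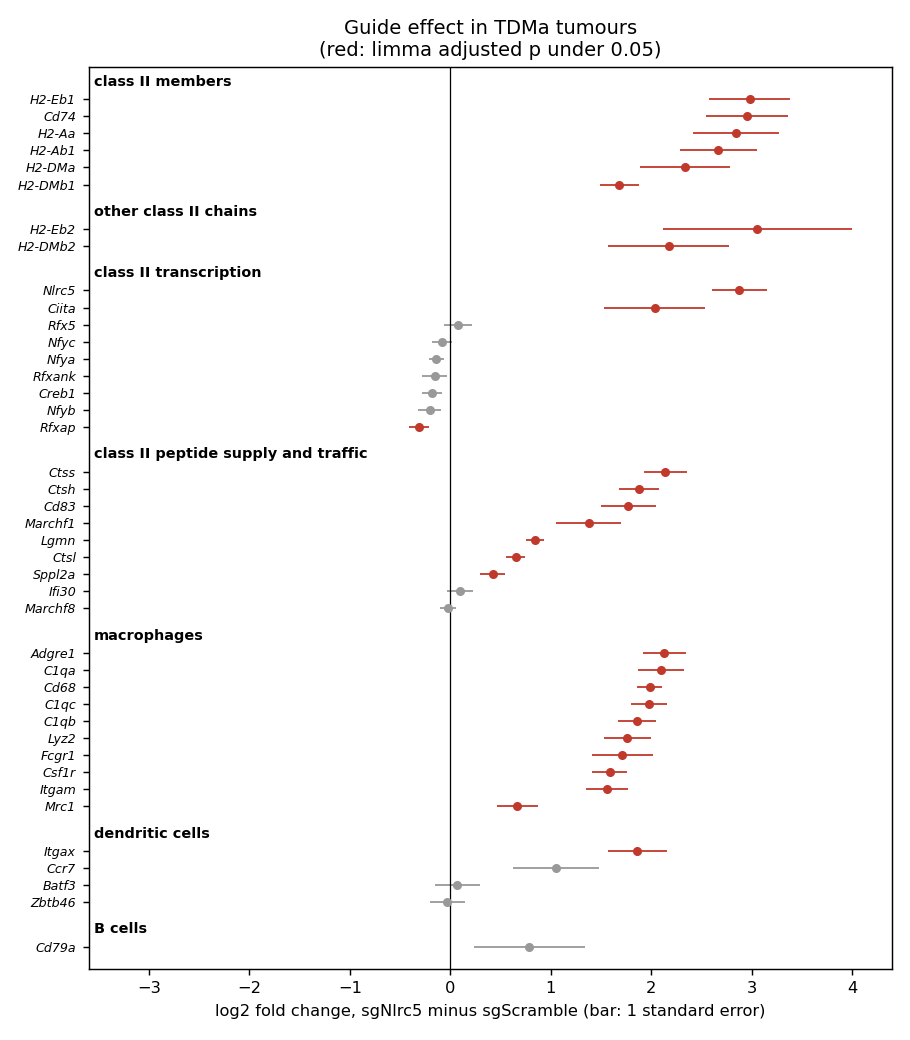
Log2 fold changes, sgNlrc5 minus sgScramble, of class II pathway genes and markers of cells that carry class II in TDMa tumours (4 per guide), with 1 standard error; red marks a limma adjusted p under 0.05. The class II genes lie between 1.68 and 3.06 and the RFX, NF-Y and CREB factor genes between -0.31 and 0.079, with Rfxap lower.

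Interferon gamma signalling genes were higher in 6 of 11, against 19.7% of all genes tested, with 0 lower and a median of 0.77. Among them the chemokine gene Cxcl9 rose by log2 1.601 ± 0.26 (limma adjusted p = 7.0e-04) and Cxcl10 by 0.78, Socs1, a feedback inhibitor, by 0.98, and the receptor genes Ifngr2 and Ifngr1 by 0.77 and 0.40. Ifng itself, with 5.497 ± 6.26 and 16.1 ± 5.91 normalised counts and 1 sgScramble tumour at 0, stood at 1.97 ± 0.73 (limma adjusted p = 0.0502). In TDMa culture the same list moved the other way, with 0 higher and 5 lower of 9 tested and a median of -0.65. Of all 12138 genes tested there, 2100 were higher and 2056 lower. There Cxcl10 changed by -2.51. The tumour effect exceeded the culture effect by 3.45 ± 0.27 for Cxcl10 (limma interaction, adjusted p = 4.7e-08).

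Markers of the cells that carry class II moved in the same direction as the class II genes in tumours, and their part in the result was not tested. Of all genes tested in tumours, 19.7% were called higher. All 10 macrophage markers rose, with a median of 1.81. Their summed level ran from 4417 to 7025 normalised counts in sgScramble tumours and from 15132 to 21101 in sgNlrc5 tumours. Cd68, a lysosomal macrophage protein, rose by 1.98 ± 0.12 (limma adjusted p = 2.9e-06), C1qa, a complement subunit, by 2.09 and Adgre1, the F4/80 antigen, by 2.13. Of these 10 markers 2, Cd68 and Lyz2, were also listed in TDMa culture, so they do not mark macrophages alone here. There Cd68 rose from 730 to 1046 normalised counts and Lyz2 fell from 51.0 to 9.98. All 4 leukocyte markers rose, with a median of 1.83, among them Ptprc, the CD45 gene, at 1.83 ± 0.37 (limma adjusted p = 0.0024). All 6 T cell markers rose, with a median of 2.92. Cd4, whose protein binds class II, rose from 5.34 to 39.1 normalised counts with overlapping groups. With sgScramble, Cd3d, Cd3e, Cd3g and Cd4 had means of 6.45, 6.62, 9.47 and 5.34, under the filter at 10. These genes passed the filter only through the sgNlrc5 tumours, so the filter favoured their rise. Lag3 and Cd3e, the other genes of the class II recognition list, rose by 2.63 and 2.84. None of the macrophage, leukocyte or T cell markers was at 0 in any tumour.

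Markers of dendritic cells and B cells were few. Of all genes tested in tumours, 19.7% were called higher and 39.4% were called in either direction. Of 9 dendritic cell markers 8 were listed, 4 passed the filter and 1 rose, Itgax, at 1.86 ± 0.29 (limma adjusted p = 5.7e-04), a gene that macrophages also express. Zbtb46 and Batf3, which stood at -0.030 and 0.067 in tumours, had means of 170 and 194 normalised counts in sgScramble TDMa culture, so they do not mark dendritic cells alone here. Xcr1 and Clec9a, markers of cross-presenting dendritic cells under the filter and named after their values were seen, had means of 3.16 and 2.79 normalised counts with sgScramble and 15.6 and 15.4 with sgNlrc5, without a test. The 8 listed markers summed to 226 to 272 in sgScramble tumours and 363 to 586 in sgNlrc5 tumours. Of 5 B cell markers 1 passed the filter and none rose at an adjusted or an unadjusted p under 0.05 by limma, with sums of 14.1 to 22.9 and 22.5 to 62.3. Melanocyte markers summed to 565550 to 637910 and 598000 to 953580, with 2 of 7 higher and 1 lower, near the share over all genes. The 1 tested neutrophil marker rose, none of 3 tested endothelial markers was called, and of 4 tested fibroblast markers 1 rose (Col1a1) and 1 fell (Pdgfra). Col1a1 and Pdgfra had means of 117 and 65.8 normalised counts in sgScramble TDMa culture, so they do not mark fibroblasts alone here. Both were lower with sgNlrc5 in that culture. Klre1, the 1 listed NK cell marker, was under the filter and at 0 in 2 sgScramble tumours. In culture 1 of the 4 leukocyte markers, Coro1a, was listed, and the others were not analysed here.

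Set against the macrophage and leukocyte markers of the same tumour, class II levels had higher means with sgNlrc5 but overlapped between the guides. The summed normalised counts of the 6 genes were 0.594 to 1.97 times the macrophage sum in sgScramble tumours (mean 1.375). In sgNlrc5 tumours they were 1.59 to 3.30 times that sum (mean 2.397), which overlaps. The macrophage sum includes Cd68 and Lyz2 (means of 1142 and 1630 normalised counts with sgScramble), which were also listed in TDMa culture. Against the leukocyte sum the 6 genes were 5.27 to 17.4 and 15.1 to 22.4 times (means of 9.85 and 17.45), again overlapping. The sgScramble tumour at 17.4 was replicate 1, and the next highest sgScramble tumour stood at 9.33. Cd74 over Ptprc was 8.34 to 30.0 with sgScramble (mean 14.8) and 21.4 to 34.9 with sgNlrc5 (mean 28.4). The sgScramble tumour at 30.0 was replicate 1. Against the dendritic cell sum the ratio was 11.8 to 40.5 and 71.0 to 138, without overlap, but most of that sum in sgScramble tumours was Zbtb46 and Batf3 (means of 106 and 70.3 normalised counts). Against the B cell sum it was 133 to 772 and 801 to 2210, also without overlap. That sum was only 14.1 to 22.9 and 22.5 to 62.3 normalised counts, so this ratio rests on few reads. Of its genes, Cd79a was also listed in TDMa culture. For H2-DMb1 over Ptprc the order of means was the reverse, 7.82 and 6.08, with overlapping values.

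The genes whose values followed the class II genes most closely over the 8 tumours were looked for among 9909 genes with a mean of at least 100 normalised counts. The measure was the root mean square difference from the mean of the 6 genes on the log2 scale, each gene centred on its own mean, so it includes the difference between guides. The members lay at 0.11 (H2-Ab1) to 0.23 (H2-DMa), apart from H2-DMb1 at 0.59. Each member is part of the mean it was measured against, so its distance is not on equal terms with that of other genes. The nearest other gene was Il12rb1, a chain of the interleukin 12 receptor, at 0.14. It was followed by the immunoproteasome gene Psmb9 at 0.24, Apol9b at 0.26, the peptide transporter gene Tap1 at 0.26, Apol9a at 0.28 and Nlrc5 at 0.28. Ciita lay at 0.36, and the median gene at 1.47. In all, 73 other genes were closer than H2-DMb1. The Apol9a and Apol9b genes are near copies of each other, and reads could be split between them. All of these values rest on 8 libraries that share 1 table and 1 contrast.

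**Figure D5:**
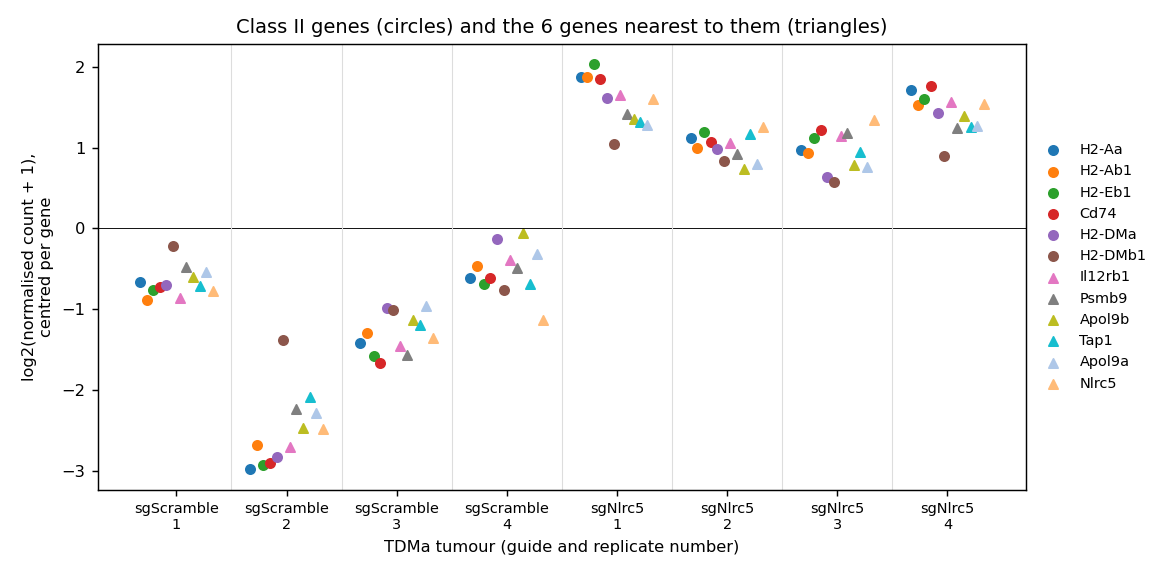
Log2(normalised count + 1), centred on each gene's mean over 8 TDMa tumours, for the 6 class II genes (circles) and the 6 nearest other genes (triangles). Each tumour is a column; sgScramble replicate 2 is lowest, between -2.99 and -2.69 for 5 class II genes, while H2-DMb1 lies higher there and lower in the sgNlrc5 tumours.

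Beside class II, all 5 class I genes listed for reference rose in the same tumours, against 19.7% of all genes tested. Their median was 2.35. H2-D1 rose by log2 4.63 ± 0.17 (limma adjusted p = 7.4e-08) and H2-K1 by 2.35 ± 0.21, while the shared light chain gene B2m rose by 1.95 ± 0.22. H2-D1 had 972, 911, 1395 and 1732 normalised counts with sgScramble, so replicate 2 was lowest there too but close to replicate 1.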

How the data were processed

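RNA sequencing of 16 libraries was deposited as 3 tables, for TDM culture, TDMa culture and TDMa tumours. Per the labels, total RNA came from a Sepasol extraction, and the NEBNext Ultra II Directional kit gave the libraries. The deposited values are log2 of a normalised count plus 1, per the labels and the file headers, and each table was normalised alone by the authors. Tools listed in the submitters' processing notes are DESeq2 1.36.0, STAR 2.7.10a and FastQC 0.12.0, with GRCm39 as the build. Which counting tool, strand setting, annotation and filter made the gene lists is not given in the sources used here.

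After this the log was undone. Every value up to 2000 steps lay within 0.1 of a whole multiple of its library's step, which gave 12183889 to 16390886 reads per library over the listed genes. Depth limits the precision of genes with few reads, and read counts cover counting error only. The test was limma 3.58.1 in R 4.3.3, fitted to each table alone on the deposited log2 scale with an intensity trend. It took in genes whose normalised counts averaged 10 or more. Two-sided p-values were adjusted by Benjamini-Hochberg over all genes tested, and 0.05 was the limit. The difference between TDMa tumours and TDMa culture was a limma interaction with array weights, whose estimation stopped before its own tolerance was met. Ratios between 2 genes were tested with exact permutation tests (scipy 1.17.1). The fits were tested on simulated counts.

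The genes and lists were chosen with earlier results of these data known, so their adjusted p-values are over all genes tested. Named genes were all members, the called members of each list up to 6 by smallest p, and the 6 nearest genes, with exceptions stated, and 1 listed gene is not reported here. The alternatives were other filters, pseudocounts, scalings, voom, a replicate block and leaving out each library.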

Additional observations from a re-analysis of the deposited data

Results flagged for a closer look

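The guide effects on H2-DMa and H2-DMb1 differed between TDMa tumours and TDMa culture by an interaction test. For H2-DMa the tumour effect exceeded the culture effect by log2 3.18 ± 0.72 (limma adjusted p = 0.0019), with all 4 sgNlrc5 tumours above all sgScramble tumours and overlapping values in culture. That difference was 2.77 with equal weights and 2.24 without sgScramble tumour 2. Over all alternatives it ran from 2.24 to 4.10. For H2-DMb1 the difference was 2.32 ± 0.22 (limma adjusted p = 4.7e-07), with all 4 sgNlrc5 tumours higher and both sgNlrc5 cultures lower than their controls. Dixon's test called no tumour apart from the other 3 of its guide for any of the 6 genes. With only 4 values per guide that test can miss such a tumour, so it does not show that none stood apart. The sgScramble tumour 2 had the lowest value of its guide for each of the 6 genes. Without it the log2 fold change in tumours went from 2.84 to 2.32 for H2-Aa and from 2.33 to 1.78 for H2-DMa.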

How the results depend on the processing

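In TDMa tumours all 102 alternative values of the 6 class II genes kept their direction and their call, with log2 fold changes from 1.503 to 3.24 and limma adjusted p up to 0.012. The number of genes called in tumours was 5268 and ran from 4336 to 5412. In TDMa culture it was 4156, fell to 1581 without the intensity trend, and ran from 2512 to 3335 when each library was left out. In TDM culture it was 62, with 2 without the intensity trend, 122 with the replicate number as a block and 62 to 146 when each library was left out. H2-DMb1 was the 1 class II gene called in TDMa culture, with 0 called without the intensity trend and 0 to 1 when each library was left out, and H2-DMa ran from -1.37 to 0.49 there. For the interaction 1 gene was called when a mean of at least 50 was required, since H2-DMa was then not tested, and 2 when each library was left out. The cause of the other changes was not tested.

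Over all genes tested, replicate numbers did not pair the samples. Same-numbered libraries had deviations correlated at -0.024 in TDM culture, -0.015 in TDMa culture and between -0.21 and 0.11 in tumours. Of the 8 tumour libraries, 2 correlated best with their own number. For the 6 class II genes, the mean centred log2 values were -0.66, -2.62, -1.33 and -0.55 in sgScramble tumours 1 to 4. They were 1.72, 1.03, 0.91 and 1.49 in sgNlrc5 tumours 1 to 4, so replicates 1 and 4 were highest under both guides. A pairing of these genes alone was not tested. With the replicate block 4533 genes were called in tumours, the 6 class II genes among them, and 4433 in TDMa culture. In tumours the block lowered the standard error of H2-Aa from 0.43 to 0.25 and that of Cd74 from 0.41 to 0.22. Equal sums of normalised counts moved the split in TDMa culture from 2100 higher and 2056 lower to 1643 and 2587. Genes with few reads, such as H2-DMa in TDMa culture, H2-Ob and Ifng, are limited by depth.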
